A study of Mus musculus with 6 samples.

Results

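The genes described here are the tumour necrosis factor (TNF) superfamily ligands, their receptors and the Traf adaptors as read in common dendritic cell progenitors, which sit in bone marrow and give rise to dendritic cells. Members were the genes whose symbol begins with Tnfrsf, Tnfsf or Traf followed by a digit, and 39 of the 16135 genes listed in any library met that rule: 18 Tnfrsf receptors, 11 Tnfsf ligands and 10 Traf or Traf3-interacting genes. The libraries came from polyadenylated RNA of progenitors flow-sorted from bone marrow of wildtype C57BL/6 mice aged 6 to 8 weeks. The sort split them by CD115, which binds macrophage colony-stimulating factor, and by Ly6C, a surface antigen of monocytes and their precursors, into CD115-Ly6C-, CD115+Ly6C+ and CD115+Ly6C- cells, with 2 libraries each. No treatment or altered allele is named for any subset, and the labels do not state whether libraries of 1 subset had different animals or sorts as their source, so p-values measure only the spread between these libraries, which may be technical.

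Ligands of the TNF superfamily are trimeric proteins held on the cell surface or shed from it, and each engages 1 or a few receptors. Receptors with a death domain can recruit adaptors that lead to caspase activation, and the others bind Traf proteins, which lead to the kinases that release NF-kappaB and to the JNK and p38 kinases. Decoy receptors bind a ligand without passing on its signal. In blood cell development the family is best known for B cell survival factors, for costimulation of T cells by dendritic cells and for the control of osteoclasts.

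Expected counts summed to 18226415 to 18954719 in the CD115-Ly6C- libraries, 17961541 to 18825536 in CD115+Ly6C+ cells and 18956257 to 19450329 in CD115+Ly6C- cells. Levels below are FPKM as deposited (fragments per length of gene and per size of library), which allows different genes to be set side by side. Differences are log2 fold changes with SE from edgeR's quasi-likelihood test on counts, with adjusted p over all 12127 genes tested and a threshold of 0.05. Of 8 markers of the progenitors, all were read in every library, and their levels differed between subsets: Flt3 stood at 323.1 to 355.84 FPKM in CD115-Ly6C- cells, 91.1 to 101.82 in CD115+Ly6C+ cells and 187.33 to 187.45 in CD115+Ly6C- cells, and Irf8 at 819.43 to 1006.99 FPKM over all 6. Kit and Siglech were also highest in CD115-Ly6C- cells, while Cx3cr1 stood at 14.56 and 16.41 FPKM in CD115-Ly6C- cells, 42.36 and 29.43 in CD115+Ly6C+ cells and 27.86 and 29.64 in CD115+Ly6C- cells. Zbtb46 was at 0.25 and 0.39 FPKM in CD115-Ly6C- cells, 2.29 and 1.87 in CD115+Ly6C+ cells and 0.32 and 0.48 in CD115+Ly6C- cells. Among 23 members with a mean of at least 1 FPKM, the higher library of a subset stood at a median of 1.13 times the lower, and at most at 1.711 times.

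**Figure D1:**
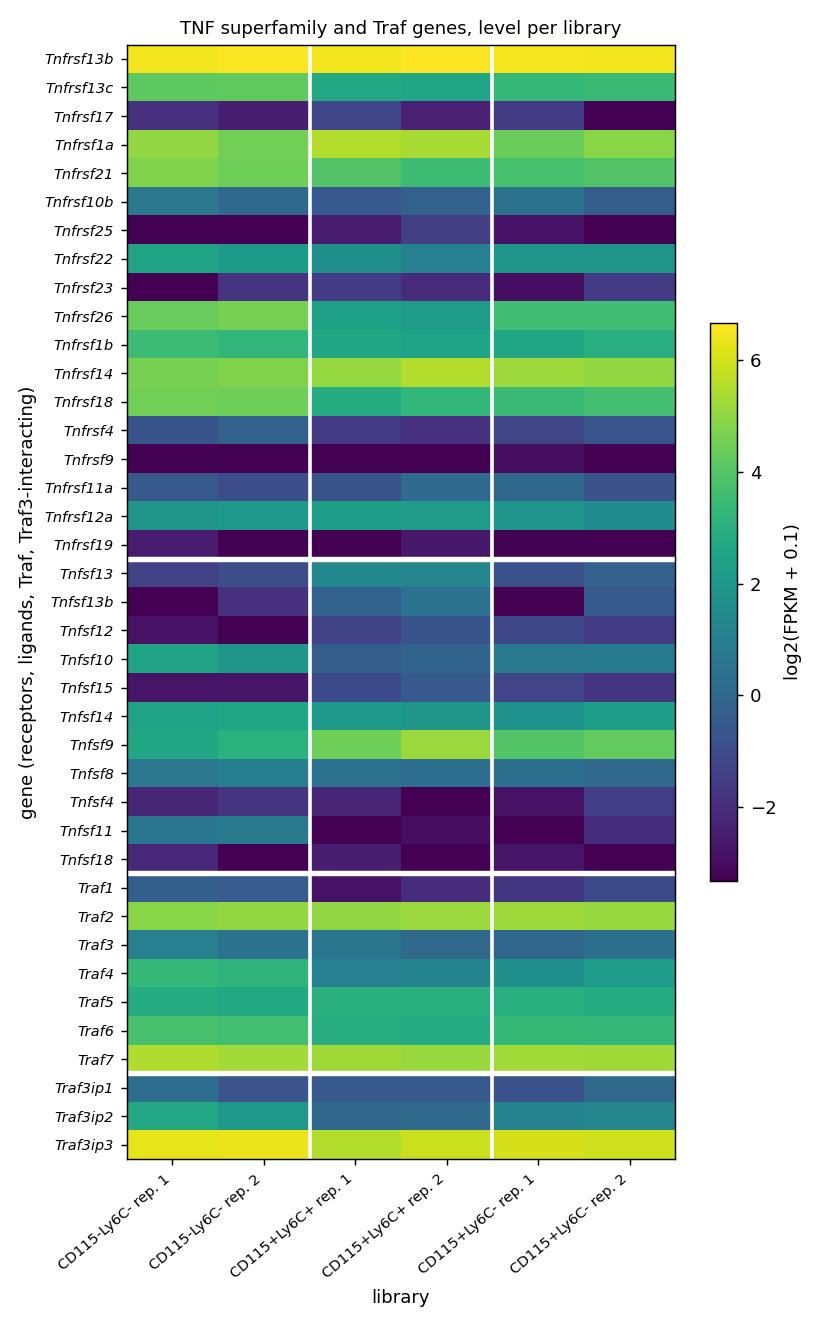
Level of each of the 39 genes (rows, receptors above ligands above Traf and Traf3-interacting genes) in the 6 libraries (columns), coloured by log2(FPKM + 0.1). Tnfrsf13b and Traf3ip3 form the brightest rows, at means of 93.3 and 65.3 FPKM over 6 libraries, and 16 of the 39 genes had a mean under 1 FPKM.

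The most abundant member was Tnfrsf13b, the gene of TACI, a receptor for the B cell factors BAFF and APRIL. It stood at 90.51 and 98.32 FPKM in CD115-Ly6C- cells, 88.44 and 101.5 in CD115+Ly6C+ cells and 92.34 and 88.86 in CD115+Ly6C- cells. The 3 subsets overlapped, and no difference passed (log2 fold changes -0.20 to 0.14, edgeR adjusted p = 0.212 to 0.765). Next came Traf3ip3, Traf7, Traf2, Tnfrsf14, Tnfrsf1a, Tnfsf9, Tnfrsf21, Tnfrsf18 and Tnfrsf26, with means over 6 libraries between 65.3 and 13.2 FPKM. In all, 12 members had a mean of at least 10 FPKM, 11 a mean of 1 to 10, and 16 a mean under 1. Reads were present in all 6 libraries for 29 members.

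A filter on low counts left 31 of the 39 members to test. The 8 not tested were Tnfrsf17, Tnfrsf25, Tnfrsf4, Tnfrsf9, Tnfrsf19, Tnfsf12, Tnfsf4 and Tnfsf18, each at 0.75 FPKM or below in every library. Of the 31 tested, 18 were called in at least 1 of the 3 comparisons and 3 in all of them: Tnfrsf13c, Tnfrsf26 and Tnfsf10. Those are 58.1% and 9.68% of the tested members, where 41.5% and 3.33% of all 12127 genes were called in at least 1 and in all 3. Of the 18, 13 had their highest mean in CD115-Ly6C- cells, 5 in CD115+Ly6C+ cells and 0 in CD115+Ly6C- cells. By mean FPKM, 17 of the 31 stood in the order CD115-Ly6C- cells over CD115+Ly6C- cells over CD115+Ly6C+ cells, 8 in the opposite order and 6 in neither. These are 54.8% and 25.8% of the members in each order, where 39.0% and 19.1% of all tested genes stood so. FPKM is scaled by library size alone, unlike the counts in the test, and the order of some members depends on that. Traf7 stood in the first order by FPKM, with log2 fold changes of only 0.00 to 0.03 in the test.

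CD115-Ly6C- cells held more transcripts of BAFF receptor, GITR, TNFR2, DR6, TRAIL, RANKL, Traf4, Traf6, Traf1, Tnfrsf22, Tnfrsf26, Traf3ip2 and Traf3ip3 than CD115+Ly6C+ cells, and fewer of APRIL, 4-1BB ligand, TL1A, TNFR1 and HVEM. In that comparison 13 of the 31 members were higher and 5 lower in CD115-Ly6C- cells, which is 58.1% of those tested, where 39.3% of all genes were called (20.1% higher and 19.2% lower). The median log2 fold change was 0.32 over the tested members and 0.03 over all genes. The lean of all genes depends on the scaling: with library totals, 3504 were higher and 1518 lower (69.8% of calls higher), against 13 and 5 of the members (72.2%). Without replicate 1 of CD115-Ly6C- cells the number higher was 8, and with each library's length trend removed it was 10, with 6 lower. In bulk RNA of sorted cells, a larger share of cells with a transcript and more of it in each cell cannot be told apart.

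Against CD115+Ly6C- cells, CD115-Ly6C- cells were higher in 8 and lower in 3 of the 31 members (35.5%), where 15.2% of all genes were called (8.43% higher and 6.78% lower). Those higher were Tnfrsf13c, Tnfrsf21, Tnfrsf26, Tnfrsf18, Tnfsf10, Tnfsf11, Traf4 and Traf3ip2, and those lower were Tnfrsf14, Tnfsf15 and Tnfsf9. The median was 0.22 over the members and 0.02 over all genes. With library totals, 8 members were higher and 2 lower (80.0% of calls higher), and over all genes 1383 were higher and 479 lower (74.3%). These calls rest on each of the 4 libraries compared: the number higher was 1 without replicate 1 and 4 without replicate 2 of CD115-Ly6C- cells, and 0 without replicate 1 and 3 without replicate 2 of CD115+Ly6C- cells. The number lower was 0 without replicate 1 and 1 without replicate 2 of either subset.

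CD115+Ly6C+ cells differed from CD115+Ly6C- cells in 5 of the 31 members (16.1%), where 9.6% of all genes were called (5.26% higher and 4.34% lower). Tnfrsf1a and Tnfsf13 were higher, and Tnfrsf13c, Tnfrsf26 and Tnfsf10 lower. The median was -0.01, and -0.01 over all genes. Without CD115+Ly6C+ replicate 1 or 2 or CD115+Ly6C- replicate 1, 0 were higher and 1 lower, and without replicate 2 of CD115+Ly6C- cells, 1 was higher and 1 lower. With 1 CD115-Ly6C- library left out, 1 was higher. Scaling by library totals gave 2 higher and 6 lower (485 and 777 over all genes), removing the length trend 1 and 2, and 6 were lower with DESeq2 and 5 with no filter on low counts. Library totals moved the median of all genes to -0.08 here, 0.14 in CD115-Ly6C- cells against CD115+Ly6C- cells and 0.22 in CD115-Ly6C- cells against CD115+Ly6C+ cells. The 3 comparisons share libraries, so they are not independent of each other.

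**Figure D2:**
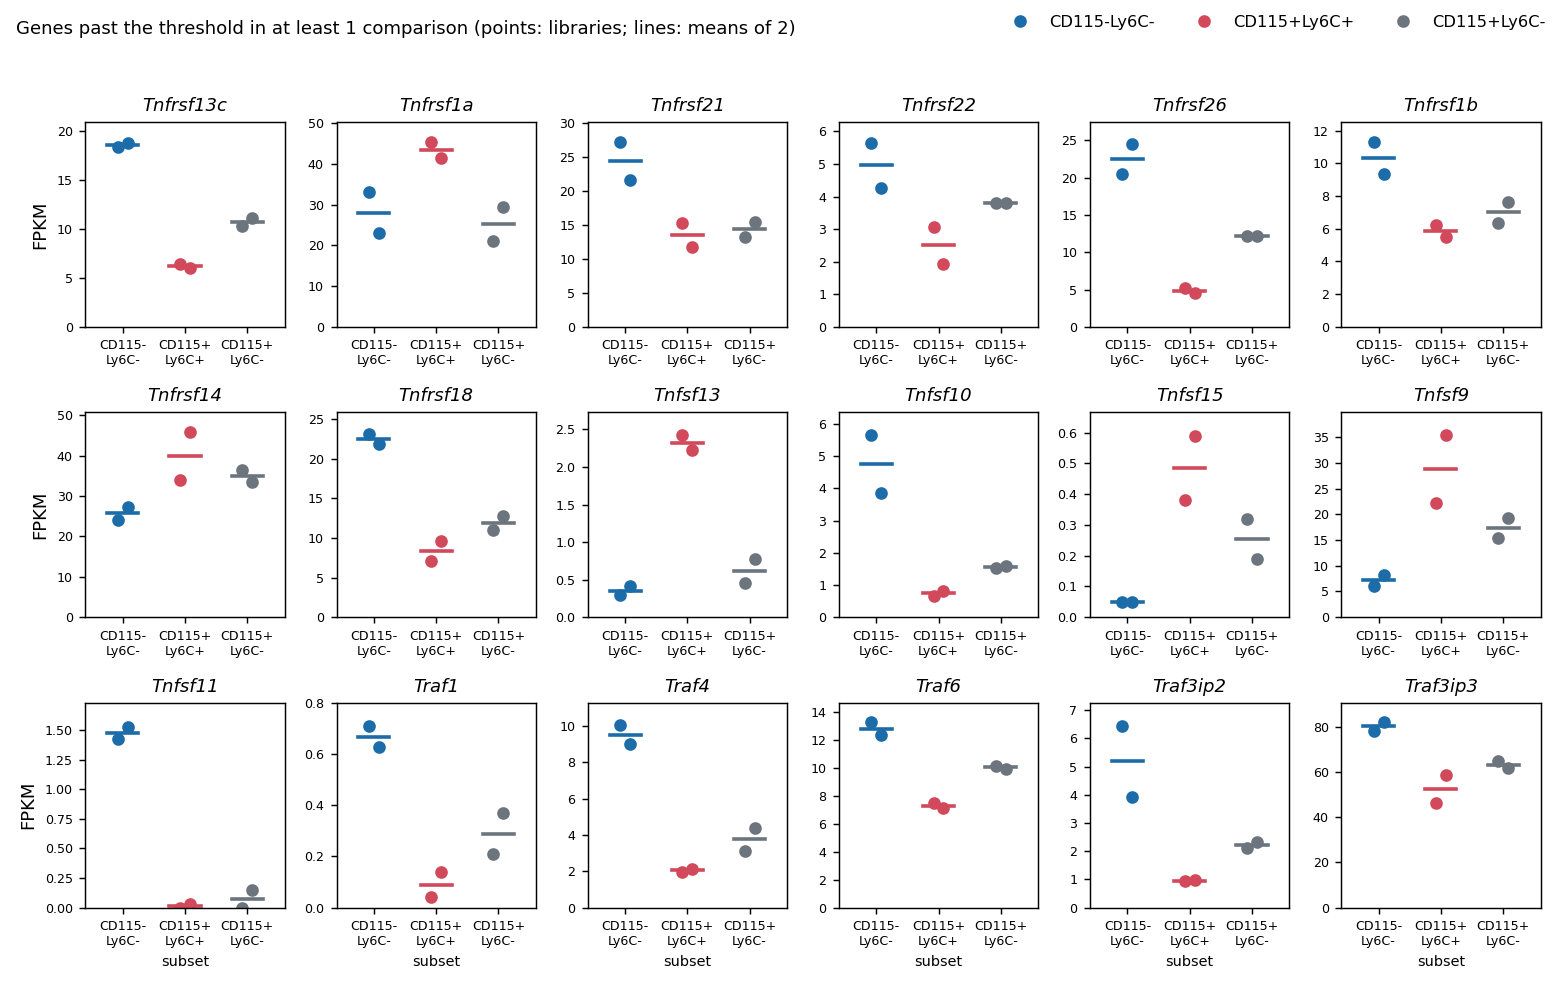
FPKM of the 18 genes called in at least 1 comparison, 1 panel a gene with a linear axis from 0, with subsets side by side, points for libraries and lines for the means of 2. For 13 genes the CD115-Ly6C- mean is the highest, and for Tnfrsf1a, Tnfrsf14, Tnfsf13, Tnfsf15 and Tnfsf9 the CD115+Ly6C+ mean.

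Among receptors of B cell factors, Tnfrsf13c (Entrez gene 72049, chromosome 15, 82221742 to 82224380 of GRCm38), which encodes the BAFF receptor of B cells, was graded over the subsets. It stood at 18.34 and 18.73 FPKM in CD115-Ly6C- cells, 6.44 and 6 in CD115+Ly6C+ cells and 10.27 and 11.06 in CD115+Ly6C- cells. No 2 subsets overlapped. On the log2 scale the difference was 1.39 (SE 0.16) for CD115-Ly6C- cells against CD115+Ly6C+ cells (edgeR adjusted p = 3.33e-04), a call that held in all 15 alternatives. It was 0.68 (SE 0.15) for CD115-Ly6C- cells and -0.71 (SE 0.16) for CD115+Ly6C+ cells, both against CD115+Ly6C- cells (edgeR adjusted p = 0.022 and 0.0286). These smaller steps passed no longer when any 1 of the 4 libraries compared was left out (0.0685 to 0.126 and 0.0876 to 0.119). Tnfrsf17, which encodes BCMA, the plasma cell receptor for the same ligands, had 3 counts in CD115-Ly6C- cells, 5 in CD115+Ly6C+ cells and 3 in CD115+Ly6C- cells. TACI, BAFF receptor and BCMA transcripts thus stood at different levels, with means over 6 libraries of 93.3, 11.8 and 0.15 FPKM.

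The stretch from 250 bases before to 50 after the start of a gene was read from RefSeq (GRCm38.p6), where 32 of the 39 members had an entry, with 36 starts. For the 3 genes called in every comparison it is shown where present, 5′ to 3′ on the strand of the gene, for Tnfrsf13c at chr15:82224331-82224630 on the minus strand and for Tnfsf10 at chr3:27316827-27317126 on the plus strand. Capitals mark matches to 4 motifs searched on both strands: GGG, any 2 bases and TTTCC for NF-kappaB, GAAA, any 2 bases and GAAA for interferon response elements, GAGGAAG for PU.1 and CAGCTG, an E-box that reads the same on both strands.
Tnfrsf13c: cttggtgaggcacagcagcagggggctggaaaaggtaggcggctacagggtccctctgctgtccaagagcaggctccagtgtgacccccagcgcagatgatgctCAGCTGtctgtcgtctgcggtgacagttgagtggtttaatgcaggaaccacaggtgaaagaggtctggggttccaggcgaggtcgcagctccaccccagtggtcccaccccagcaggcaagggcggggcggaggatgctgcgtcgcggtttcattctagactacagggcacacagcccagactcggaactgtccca
Tnfsf10: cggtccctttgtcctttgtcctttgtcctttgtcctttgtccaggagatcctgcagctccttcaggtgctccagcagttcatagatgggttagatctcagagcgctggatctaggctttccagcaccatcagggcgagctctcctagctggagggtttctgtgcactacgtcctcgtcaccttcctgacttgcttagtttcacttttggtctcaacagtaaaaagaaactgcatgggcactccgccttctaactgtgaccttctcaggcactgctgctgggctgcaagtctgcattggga
The Tnfrsf13c stretch held the E-box letters 146 bases before the start, and the Tnfsf10 stretch held none of the 4. Of all 32851 promoters in the table, 1.63% held the NF-kappaB letters, 3.44% the interferon letters, 13.6% the PU.1 letters and 16.3% the E-box. Of the 36 starts of members, 4, 4, 8 and 6 did. The genes with NF-kappaB letters were Tnfrsf25, Tnfrsf9, Traf2 and Traf3, of which the first 2 were not tested and the others not called in any comparison. A match is a description of letters and not of a bound site.

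Receptors with a death domain differed in direction. Tnfrsf1a (chromosome 6, 125349723 to 125362483), which encodes TNFR1, the main receptor for soluble TNF, stood at 33 and 22.95 FPKM in CD115-Ly6C- cells, 45.38 and 41.4 in CD115+Ly6C+ cells and 20.99 and 29.49 in CD115+Ly6C- cells. Both CD115+Ly6C+ libraries lay above all 4 others, which overlapped. CD115+Ly6C+ cells were higher than CD115+Ly6C- cells on the log2 scale by 0.86 (SE 0.20), and CD115-Ly6C- cells were lower than CD115+Ly6C+ cells, at -0.83 (SE 0.20) (edgeR adjusted p = 0.0332 and 0.0111). The first ended when either library of CD115+Ly6C+ cells, or replicate 1 of CD115+Ly6C- cells, was left out (0.102 to 0.19) and with limma on FPKM (0.0515 and 0.0516), and the second without replicate 2 of CD115-Ly6C- cells (0.0588).

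Tnfrsf21, which encodes DR6, a death domain receptor that tempers lymphocyte responses, was at 27.21 and 21.71 FPKM in CD115-Ly6C- cells, 15.35 and 11.77 in CD115+Ly6C+ cells and 13.29 and 15.46 in CD115+Ly6C- cells. The CD115-Ly6C- libraries lay above the others, which overlapped. On the log2 scale its difference was 0.66 (SE 0.16) for CD115-Ly6C- cells against CD115+Ly6C+ cells and 0.64 (SE 0.16) against CD115+Ly6C- cells (edgeR adjusted p = 0.0131 and 0.0333). Without replicate 1 of CD115-Ly6C- cells these were 0.0815 and 0.206, without replicate 2 of CD115+Ly6C+ cells the first was 0.0836, and without CD115+Ly6C- replicate 1 or 2 the second was 0.186 or 0.0762. Tnfrsf10b, the mouse TRAIL receptor that carries a death domain, stood at 1.51 and 0.96 FPKM in CD115-Ly6C- cells, 0.58 and 0.75 in CD115+Ly6C+ cells and 1.26 and 0.68 in CD115+Ly6C- cells. It was called in no comparison (edgeR adjusted p = 0.266 to 0.774). Tnfrsf25, which encodes DR3, had 0, 9 and 1 counts in CD115-Ly6C- cells, CD115+Ly6C+ cells and CD115+Ly6C- cells.

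Tnfrsf26, Tnfrsf22 and Tnfrsf23 lie side by side on chromosome 7, with 7.0 kb between the first 2 and 16.1 kb between Tnfrsf22 and Tnfrsf23. In mice Tnfrsf22 and Tnfrsf23 encode decoy receptors for TRAIL, and Tnfrsf26 a relative of them. Tnfrsf26 (chromosome 7, 143607685 to 143627845) was graded too, at 20.5 and 24.44 FPKM in CD115-Ly6C- cells, 5.19 and 4.51 in CD115+Ly6C+ cells and 12.18 and 12.16 in CD115+Ly6C- cells. No 2 subsets overlapped, and its adjusted p was the smallest of any member over the 3 comparisons. CD115-Ly6C- cells were higher than CD115+Ly6C+ cells on the log2 scale by 2.02 (SE 0.16), and CD115+Ly6C+ cells lower than CD115+Ly6C- cells, at -1.26 (SE 0.16) (edgeR adjusted p = 5.49e-05 and 0.00297), and both calls held in all 15 alternatives. The difference of 0.77 (SE 0.15) between CD115-Ly6C- cells and CD115+Ly6C- cells (edgeR adjusted p = 0.013) ended when replicate 2 of CD115-Ly6C- cells, or either library of CD115+Ly6C- cells, was left out (0.0661 to 0.0862).

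Tnfrsf22 stood at 5.64 and 4.27 FPKM in CD115-Ly6C- cells, 3.07 and 1.93 in CD115+Ly6C+ cells and 3.81 and 3.8 in CD115+Ly6C- cells. Its subsets lay in the same order as those of Tnfrsf26, and 1 of its 3 differences passed, at 0.79 (SE 0.24) for CD115-Ly6C- cells against CD115+Ly6C+ cells (edgeR adjusted p = 0.0311). That call ended without replicate 1 of CD115-Ly6C- cells (0.159), CD115+Ly6C+ replicate 2 (0.163, with a log2 fold change of 0.52) or either CD115+Ly6C- library (0.0507 and 0.0539), with the 2 subsets fitted alone (0.052) and with the length trend removed (0.0915). Tnfrsf23 was at 0 to 0.24 FPKM. Stretches of up to 766 bases of Tnfrsf22 transcripts align with other genes at 95% identity or more, and exons of Tnfrsf26 and Tnfrsf23 overlap the antisense gene E230032D23Rik by 107 and 164 bases, so a part of their reads is uncertain.

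Receptors that bind Traf proteins without a death domain were split too. Tnfrsf18, which encodes GITR, a costimulatory receptor of T cells, stood at 23.15 and 21.9 FPKM in CD115-Ly6C- cells, 7.08 and 9.62 in CD115+Ly6C+ cells and 10.98 and 12.71 in CD115+Ly6C- cells. No 2 subsets overlapped. On the log2 scale its difference was 1.24 (SE 0.23) for CD115-Ly6C- cells against CD115+Ly6C+ cells, called in all 15 alternatives as well, and 0.81 (SE 0.22) against CD115+Ly6C- cells (edgeR adjusted p = 0.00322 and 0.0411). The second ended when any 1 of the 4 libraries compared was left out (0.0925 to 0.2). Tnfrsf4, which encodes OX40 and lies 9.7 kb from Tnfrsf18 on chromosome 4, was at 0.5 and 0.75 FPKM in CD115-Ly6C- cells, 0.22 and 0.17 in CD115+Ly6C+ cells and 0.32 and 0.54 in CD115+Ly6C- cells, on 23, 7 and 16 counts. It was not tested.

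Tnfrsf1b, the gene of TNFR2, which responds mainly to membrane-bound TNF, was at 11.31 and 9.33 FPKM in CD115-Ly6C- cells, 6.24 and 5.49 in CD115+Ly6C+ cells and 6.33 and 7.65 in CD115+Ly6C- cells. The CD115-Ly6C- libraries were the highest 2 of the 6. Only the difference from CD115+Ly6C+ cells passed, at 0.62 (SE 0.16, edgeR adjusted p = 0.0138), and not without replicate 1 of CD115-Ly6C- cells (0.0891), without replicate 2 of CD115+Ly6C+ cells (0.0789) or with the length trend removed (0.102). The 2 TNF receptors therefore moved in opposite directions between CD115-Ly6C- cells and CD115+Ly6C+ cells.

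Tnfrsf14, which encodes HVEM, a receptor for LIGHT, stood at 24.14 and 27.2 FPKM in CD115-Ly6C- cells, 33.93 and 45.88 in CD115+Ly6C+ cells and 36.4 and 33.39 in CD115+Ly6C- cells. The CD115-Ly6C- libraries lay below the other 4, which overlapped. The level was lower in CD115-Ly6C- cells than in CD115+Ly6C+ cells, at -0.83 (SE 0.16, edgeR adjusted p = 0.00441), in all 15 alternatives, and than CD115+Ly6C- cells, at -0.56 (SE 0.16, edgeR adjusted p = 0.0489). The last value was lost when any 1 of the 4 libraries compared was left out (0.0699 to 0.25), with RLE size factors (0.0501), library totals (0.0826) or limma on FPKM (0.0888 and 0.0904). Its transcripts hold stretches of up to 162 bases that align with many other genes at 95% identity or more.

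Tnfrsf12a, which encodes the TWEAK receptor FN14, stood at 2.79 to 4.68 FPKM and Tnfrsf11a, which encodes RANK, the receptor of osteoclast precursors, at 0.43 to 1.04. Neither was called (edgeR adjusted p = 0.321 to 0.754 and 0.159 to 0.684). Tnfrsf9, the gene of 4-1BB, had 1 count over all 6 libraries, and 0 counts in 5 of them, which allows up to 3 in each. Tnfrsf19, which encodes TROY, had 5, 4 and 0 counts in CD115-Ly6C- cells, CD115+Ly6C+ cells and CD115+Ly6C- cells. Summed over the 18 receptors, FPKM was 255.39 to 260.45 in CD115-Ly6C- cells, 217.73 to 235.09 in CD115+Ly6C+ cells and 213.13 to 219.32 in CD115+Ly6C- cells, of which Tnfrsf13b is the largest term.

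**Figure D3:**
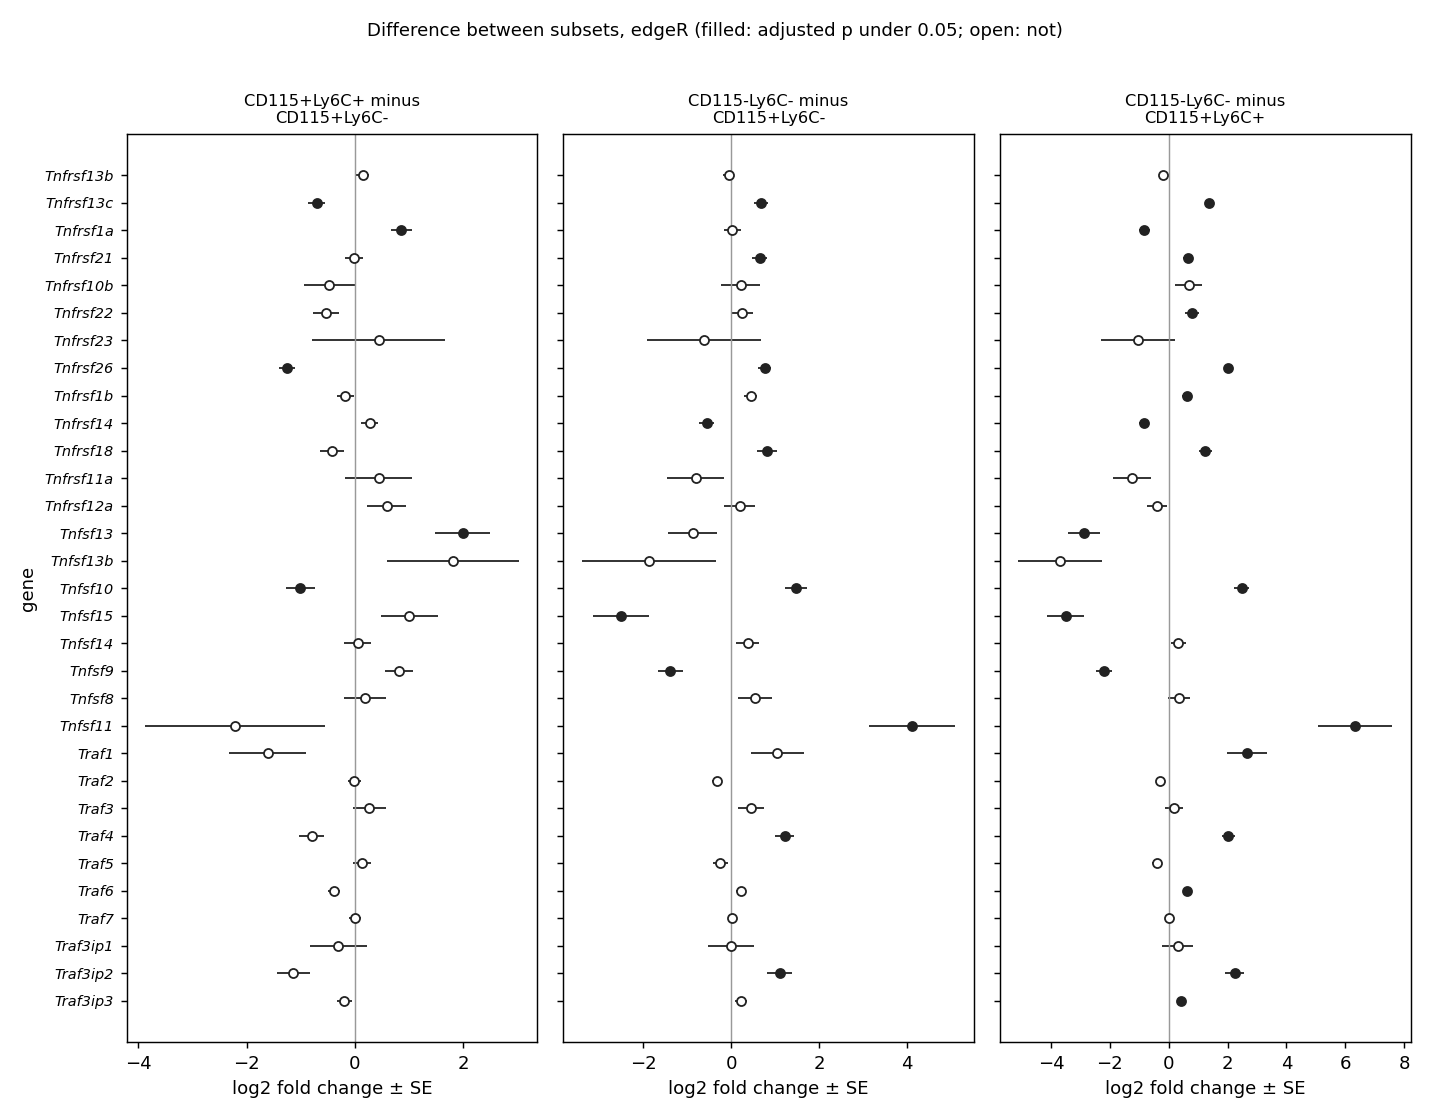
Log2 fold change of the 31 tested genes in each comparison (points, with SE bars, from edgeR), with filled points past the threshold. In CD115-Ly6C- minus CD115+Ly6C+, 18 points are filled, 13 above 0 and 5 below, with Tnfsf15 at -3.50 and Tnfsf10 at 2.48, and the fitted point of Tnfsf11, farthest to the right, rests on 1 count in CD115+Ly6C+ cells.

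In sum, ligands stood lower than receptors: the summed FPKM of the 11 was 20.65 to 22.17 in CD115-Ly6C- cells, 32.26 to 45.8 in CD115+Ly6C+ cells and 22.58 to 28.79 in CD115+Ly6C- cells. Tnfsf9 (chromosome 17, 57105287 to 57107758), which encodes the 4-1BB ligand, a costimulator displayed by antigen-presenting cells, was the most abundant of them. It stood at 6.08 and 8.25 FPKM in CD115-Ly6C- cells, 22.2 and 35.45 in CD115+Ly6C+ cells and 15.31 and 19.35 in CD115+Ly6C- cells. No 2 subsets overlapped. CD115-Ly6C- cells were lower than CD115+Ly6C+ cells, at -2.20 (SE 0.28, edgeR adjusted p = 5.81e-04), in all 15 alternatives, and than CD115+Ly6C- cells, at -1.39 (SE 0.28, edgeR adjusted p = 0.0148), a call lost when replicate 1 of CD115-Ly6C- cells, or either library of CD115+Ly6C- cells, was left out (0.0587 to 0.0876). Between CD115+Ly6C+ cells and CD115+Ly6C- cells the value of 0.81 (SE 0.27) missed the threshold (edgeR adjusted p = 0.0884) and passed it with DESeq2 (0.0401) and with no filter on low counts (0.0182). The ligand was thus read at 6.08 to 35.45 FPKM in libraries where its receptor gene Tnfrsf9 had at most 1 count.

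Tnfsf10 (chromosome 3, 27317077 to 27339665), the gene of TRAIL, which can trigger death through Tnfrsf10b, ran the opposite way. It stood at 5.64 and 3.84 FPKM in CD115-Ly6C- cells, 0.67 and 0.82 in CD115+Ly6C+ cells and 1.53 and 1.6 in CD115+Ly6C- cells. No 2 subsets overlapped. CD115-Ly6C- cells were higher than CD115+Ly6C+ cells by 2.48 (SE 0.26, edgeR adjusted p = 2.45e-04), in all 15 alternatives, and than CD115+Ly6C- cells by 1.47 (SE 0.25, edgeR adjusted p = 0.00731), which ended without CD115-Ly6C- or CD115+Ly6C- replicate 1 (0.0669 and 0.0666). CD115+Ly6C+ cells were lower than CD115+Ly6C- cells, at -1.01 (SE 0.26, edgeR adjusted p = 0.0471), which ended when any 1 of the 4 libraries compared was left out (0.105 to 0.17), with the length trend removed (0.1), with limma on FPKM (0.073 and 0.104) and with the 2 subsets fitted alone (0.0632).

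Tnfsf11, the gene of RANKL, the ligand that drives osteoclasts and lymph node organisers, was read mainly in CD115-Ly6C- cells. It stood at 1.43 and 1.53 FPKM in CD115-Ly6C- cells, 0 and 0.03 in CD115+Ly6C+ cells and 0 and 0.15 in CD115+Ly6C- cells, on 114, 1 and 6 counts. Against CD115+Ly6C+ cells the ratio of counts per library total was 113 (exact 95% counting interval 19.8 to 4490, edgeR adjusted p = 0.00497, in all 15 alternatives). Against CD115+Ly6C- cells the log2 difference was 4.11 (SE 0.99, edgeR adjusted p = 0.0276). This ended when either library of CD115-Ly6C- cells, or replicate 1 of CD115+Ly6C- cells, was left out (0.0681 to 0.0975), and without replicate 2 of CD115+Ly6C- cells, which held all 6 counts, the fitted value was 8.74 (0.027) against a library at 0. Intervals cover counting error only, since no label names molecular identifiers.

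APRIL and BAFF, the ligands of TACI, both had their highest mean in CD115+Ly6C+ cells. Tnfsf13 (chromosome 11, 69682577 to 69685554), which encodes APRIL, was at 0.29 and 0.42 FPKM in CD115-Ly6C- cells, 2.42 and 2.23 in CD115+Ly6C+ cells and 0.45 and 0.77 in CD115+Ly6C- cells. The CD115+Ly6C+ libraries lay apart from the other 4. CD115-Ly6C- cells were lower than CD115+Ly6C+ cells, at -2.87 (SE 0.54, edgeR adjusted p = 0.00388), in all 15 alternatives, and CD115+Ly6C+ cells higher than CD115+Ly6C- cells by 1.99 (SE 0.51, edgeR adjusted p = 0.0444). This call was lost when any 1 of the 6 libraries was left out (0.0521 to 0.204) and with the length trend removed (0.0658). Tnfsf13 shares 983 exon bases with Tnfsfm13, a transcript that joins it to Tnfsf12, and 221 with the antisense gene Tnfsf13os, and RSEM split its reads by estimation (68.33 and 60.34 counts in CD115+Ly6C+ cells). Tnfsf13b, which encodes BAFF, stood at 0 and 0.17 FPKM in CD115-Ly6C- cells, 0.79 and 1.28 in CD115+Ly6C+ cells and 0 and 0.62 in CD115+Ly6C- cells. Its differences did not pass, on 5, 58 and 18 counts (log2 fold change -3.69 with SE 1.42 for CD115-Ly6C- cells against CD115+Ly6C+ cells, edgeR adjusted p = 0.0687).

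Tnfsf12, which encodes TWEAK and lies 0.7 kb from Tnfsf13, was not tested. It had 1, 23 and 17 counts in CD115-Ly6C- cells, CD115+Ly6C+ cells and CD115+Ly6C- cells, a ratio of 0.043 for CD115-Ly6C- cells to CD115+Ly6C+ cells (exact 95% counting interval 0.00104 to 0.265) that describes these libraries. Its exons share 731 bases with Tnfsfm13, and its counts are estimates (8.92 and 14.01 in the CD115+Ly6C+ libraries) rounded here. The interval does not cover error in that split of reads. Tnfsf15, which encodes TL1A, the ligand of DR3, stood at 0.05 and 0.05 FPKM in CD115-Ly6C- cells, 0.38 and 0.59 in CD115+Ly6C+ cells and 0.32 and 0.19 in CD115+Ly6C- cells, on 10, 100 and 55 counts. CD115-Ly6C- cells were below both other subsets, at -3.50 (SE 0.63) against CD115+Ly6C+ cells in all 15 alternatives and -2.50 (SE 0.63) against CD115+Ly6C- cells (edgeR adjusted p = 0.00298 and 0.0334). The second ended when either library of CD115-Ly6C- cells, or replicate 1 of CD115+Ly6C- cells, was left out (0.11 to 0.17), with limma on FPKM (0.0828 and 0.195) and with the 2 subsets fitted alone (0.0545).

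Tnfsf14, which encodes LIGHT, the ligand of HVEM, stood at 3.38 to 5.85 FPKM and Tnfsf8, which encodes the CD30 ligand, at 1 to 1.88. No difference passed for either (edgeR adjusted p = 0.341 to 0.925 and 0.373 to 0.801). Tnfsf4, the OX40 ligand gene, had 8, 3 and 8 counts and Tnfsf18, the GITR ligand gene, 4, 3 and 2 in CD115-Ly6C- cells, CD115+Ly6C+ cells and CD115+Ly6C- cells. GITR was thus read at 7.08 FPKM or more in libraries with at most 4 counts of its ligand.

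Of the 7 Traf genes, Traf4, Traf6 and Traf1 were called, each highest in CD115-Ly6C- cells and each past the threshold against CD115+Ly6C+ cells, where 39.3% of all genes were called. Traf4 (chromosome 11, 78158423 to 78165579), an adaptor unlike the others in being known mainly from epithelia and development, stood at 10.06 and 9.01 FPKM in CD115-Ly6C- cells, 1.94 and 2.15 in CD115+Ly6C+ cells and 3.12 and 4.4 in CD115+Ly6C- cells. No 2 subsets overlapped. CD115-Ly6C- cells were higher than CD115+Ly6C+ cells by 2.02 (SE 0.22, edgeR adjusted p = 3e-04), in all 15 alternatives, and than CD115+Ly6C- cells by 1.22 (SE 0.21, edgeR adjusted p = 0.00889), which ended without CD115-Ly6C- or CD115+Ly6C- replicate 1 (0.055 and 0.0694). The value of -0.80 (SE 0.22) for CD115+Ly6C+ cells against CD115+Ly6C- cells did not pass (edgeR adjusted p = 0.0581) and did with DESeq2 (0.0306), library totals (0.0465) and no filter (0.0255).

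Traf6, the ubiquitin ligase shared by RANK, CD40 and the Toll-like and interleukin 1 receptors, was at 13.28 and 12.35 FPKM in CD115-Ly6C- cells, 7.46 and 7.14 in CD115+Ly6C+ cells and 10.12 and 9.94 in CD115+Ly6C- cells. The subsets did not overlap. The difference of 0.62 (SE 0.11) between CD115-Ly6C- cells and CD115+Ly6C+ cells passed (edgeR adjusted p = 0.00343, or 0.0574 with the length trend removed), and the others did not, at 0.23 and -0.39 (edgeR adjusted p = 0.2 and 0.0659). The value of -0.39, for CD115+Ly6C+ cells against CD115+Ly6C- cells, passed with DESeq2 (0.0417) and library totals (0.0404). Traf1, an adaptor induced by NF-kappaB in activated lymphocytes, stood at 0.71 and 0.63 FPKM in CD115-Ly6C- cells, 0.04 and 0.14 in CD115+Ly6C+ cells and 0.21 and 0.37 in CD115+Ly6C- cells, on 90, 12 and 41 counts. On the log2 scale its difference was 2.67 (SE 0.69) for CD115-Ly6C- cells against CD115+Ly6C+ cells (edgeR adjusted p = 0.0158), and the call ended without replicate 1 of either (0.0608 and 0.0758).

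The other Traf genes passed in no comparison. Traf2, which brings the cIAP ligases to TNF receptors, stood at 29.65 and 32.58 FPKM in CD115-Ly6C- cells, 31.77 and 35.7 in CD115+Ly6C+ cells and 36.62 and 35.19 in CD115+Ly6C- cells, with no call (edgeR adjusted p = 0.0713 to 0.942), though CD115-Ly6C- cells were below CD115+Ly6C+ cells with the length trend removed (-0.41, 0.0303). Traf7, which lacks the typical receptor-binding domain of the family, was at 44.82 and 39.1 FPKM in CD115-Ly6C- cells, 37.77 and 34.61 in CD115+Ly6C+ cells and 38.32 and 37.46 in CD115+Ly6C- cells, with log2 fold changes of 0.00 to 0.03 (edgeR adjusted p = 0.881 to 0.996). Traf5 stood at 6.61 to 8.02 FPKM and Traf3, a brake on the noncanonical NF-kappaB kinase, at 0.95 to 1.96, and neither was called (edgeR adjusted p = 0.108 to 0.653 and 0.335 to 0.645). Exons of Traf7 share 267 bases with Rab26 and 110 with Caskin1. Those of Traf5 share 205 with the antisense gene Gm26879 and 65 with Mir3473c, so a part of the reads of both is uncertain. A value that misses the threshold does not show that the subsets are alike.

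Of the Traf3-interacting genes, Traf3ip3, a lymphocyte membrane protein that binds Traf3, was abundant, at 78.13 and 82.19 FPKM in CD115-Ly6C- cells, 46.19 and 58.72 in CD115+Ly6C+ cells and 64.73 and 61.84 in CD115+Ly6C- cells. The subsets did not overlap. CD115-Ly6C- cells were higher than CD115+Ly6C+ cells by 0.42 (SE 0.14, edgeR adjusted p = 0.0399), and this ended without either CD115-Ly6C- library, CD115+Ly6C+ replicate 1 (0.21, with 0.24) or either CD115+Ly6C- library (0.0584 to 0.21 in all) and with the 2 subsets fitted alone (0.0624). Its exons share 420 bases with A130010J15Rik, those of Tnfrsf18 share 414 with the antisense gene Gm16008, those of Traf3ip2 293 with E130307A14Rik and those of Tnfsf9 192 with Gm11110. Traf3ip2, which encodes ACT1, the adaptor of interleukin 17 receptors, stood at 6.46 and 3.94 FPKM in CD115-Ly6C- cells, 0.93 and 0.99 in CD115+Ly6C+ cells and 2.11 and 2.33 in CD115+Ly6C- cells. No 2 subsets overlapped. CD115-Ly6C- cells were higher than CD115+Ly6C+ cells by 2.24 (SE 0.31, edgeR adjusted p = 8.22e-04), in all 15 alternatives, and than CD115+Ly6C- cells by 1.10 (SE 0.29, edgeR adjusted p = 0.037). The smaller difference ended without replicate 1 of CD115-Ly6C- cells (0.299, with 0.73) or either CD115+Ly6C- library (0.101 and 0.176). For CD115+Ly6C+ cells against CD115+Ly6C- cells the value was -1.14 (SE 0.31, edgeR adjusted p = 0.0535), and it passed with DESeq2 (0.0241), library totals (0.0474), no filter (0.0164) and without replicate 2 of CD115-Ly6C- cells (0.0433). Traf3ip1, a part of the ciliary transport complex, stood at 0.49 to 1.11 FPKM with no call. Summed over the 10 Traf and Traf3-interacting genes, FPKM was 188.14 to 193.29 in CD115-Ly6C- cells, 136.12 to 148.7 in CD115+Ly6C+ cells and 160.96 to 164.48 in CD115+Ly6C- cells.

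Family members whose symbols fall outside the rule were read from a list of 7 ligands and 8 receptors, of which 2 and 6 could be tested. Ltb, the gene of lymphotoxin beta, which builds lymphoid tissue, stood at 18.29 and 18.65 FPKM in CD115-Ly6C- cells, 1.63 and 1.48 in CD115+Ly6C+ cells and 1.37 and 1.39 in CD115+Ly6C- cells. It was higher in CD115-Ly6C- cells than in both, by 3.34 (SE 0.28) and 3.63 (SE 0.28) (edgeR adjusted p = 7.47e-05 and 2.74e-04). Cd27, a receptor of lymphoid and early progenitors, was at 173.28 and 157.46 FPKM in CD115-Ly6C- cells, 45.01 and 35.71 in CD115+Ly6C+ cells and 79.7 and 85.03 in CD115+Ly6C- cells, and differed in all 3 comparisons (edgeR adjusted p = 3.51e-05 to 0.00366). Cd40, the receptor through which T cells license antigen-presenting cells, was at 0 and 0.07 FPKM in CD115-Ly6C- cells, 2.03 and 2.3 in CD115+Ly6C+ cells and 0.17 and 0.07 in CD115+Ly6C- cells, and was higher in CD115+Ly6C+ cells than in CD115+Ly6C- cells (edgeR adjusted p = 0.0171) and lower in CD115-Ly6C- cells than in CD115+Ly6C+ cells (0.00157). The first of these ended when any 1 of the 4 libraries compared was left out (0.0559 to 0.0785). Tnf itself stood at 3.67 and 6.39 FPKM in CD115-Ly6C- cells, 4.05 and 5.37 in CD115+Ly6C+ cells and 2.45 and 5.09 in CD115+Ly6C- cells, which overlapped, and was not called.

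Downstream of the receptors, lists of pathway genes were read in the same fit. Between CD115-Ly6C- cells and CD115+Ly6C+ cells, of 15 genes of IKK kinases and NF-kappaB factors, 5 were higher and 2 lower in CD115-Ly6C- cells (46.7%, where 39.3% of all genes were called, with a median of 0.14). Of the 7 calls, those of Chuk and Rel held in all 15 alternatives, and each of the others ended in 2 to 10 of them. Rela and Rel, subunits of canonical NF-kappaB, stood at 42.32 and 37.24 FPKM in CD115-Ly6C- cells against 25.15 and 22.53 in CD115+Ly6C+ cells, and at 5.76 and 6.2 in CD115-Ly6C- cells against 2.25 and 2.75 in CD115+Ly6C+ cells (edgeR adjusted p = 0.0102 and 0.00802). The call of Rela ended without replicate 1 of CD115-Ly6C- cells (0.064) or replicate 2 of CD115+Ly6C+ cells (0.0633). Chuk, which encodes IKK alpha, was lower, at 21.04 and 12.04 FPKM in CD115-Ly6C- cells against 35.14 and 33.23 in CD115+Ly6C+ cells (edgeR adjusted p = 0.0056). Of 20 genes of receptor complexes and their brakes, 3 were higher and 3 lower (30.0%, where 39.3% of all genes were called, median -0.06). Tnfaip3, which encodes the brake A20, was higher, at 5.81 and 8.01 FPKM in CD115-Ly6C- cells against 1.7 and 3.03 in CD115+Ly6C+ cells (edgeR adjusted p = 0.00707). Traip was lower, at 17.68 and 19.12 against 27.42 and 27.49 (edgeR adjusted p = 0.00173). These 2 calls held in all 15 alternatives, and those of Cflar, Birc2, Otulin and Tank ended in 5, 4, 6 and 8 of them.

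Of 15 inhibitors and feedback targets of NF-kappaB, 4 were higher in CD115-Ly6C- cells than in CD115+Ly6C+ cells and 0 lower, namely Nfkbie, Nfkbiz, Icam1 and Irf1. That is 26.7%, where 39.3% of all genes were called, with a list median of 0.48. The other 11 were not called. Among them Ccl4 varied widely within subsets, at 129.72 and 356.05 FPKM in CD115-Ly6C- cells and 32.18 and 141.75 in CD115+Ly6C+ cells. Nfkbie was lost without replicate 1 of CD115-Ly6C- cells (0.0789) or replicate 2 of CD115+Ly6C+ cells (0.0758), and Icam1 without replicate 2 of CD115-Ly6C- cells (0.0586). Nfkbiz, an inducible nuclear cofactor of NF-kappaB, stood at 5.24 and 6.35 FPKM in CD115-Ly6C- cells against 1.46 and 1.35 in CD115+Ly6C+ cells (edgeR adjusted p = 0.00162). In the JNK and p38 branch 2 of 10 were higher and 1 lower (30.0%, median -0.07), and in the shedding list 1 of 6 was higher (16.7%, median 0.16). The tested family members under other symbols, 2 ligands and 6 receptors, are counted with these lists in what follows. Over all of them, 17 of 74 tested genes were higher and 7 lower (32.4%, where 39.3% of all genes were called), with Ltb and Cd27 among the higher and Cd40 among the lower. In CD115-Ly6C- cells against CD115+Ly6C- cells it was 8 and 1 (12.2%, where 15.2% were called), with Ltb and Cd27 among the higher. In CD115+Ly6C+ cells against CD115+Ly6C- cells it was 1 and 1 (2.7%, where 9.6% were called), by edgeR, with 11 at an unadjusted p under 0.05. The higher was Cd40 and the lower Cd27, and each downstream list had 0 calls. With library totals 18.9% of the list genes were called in CD115-Ly6C- cells against CD115+Ly6C- cells, where 15.4% of all genes were, and 37.8% against CD115+Ly6C+ cells, where 41.4% were.

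**Figure D4:**
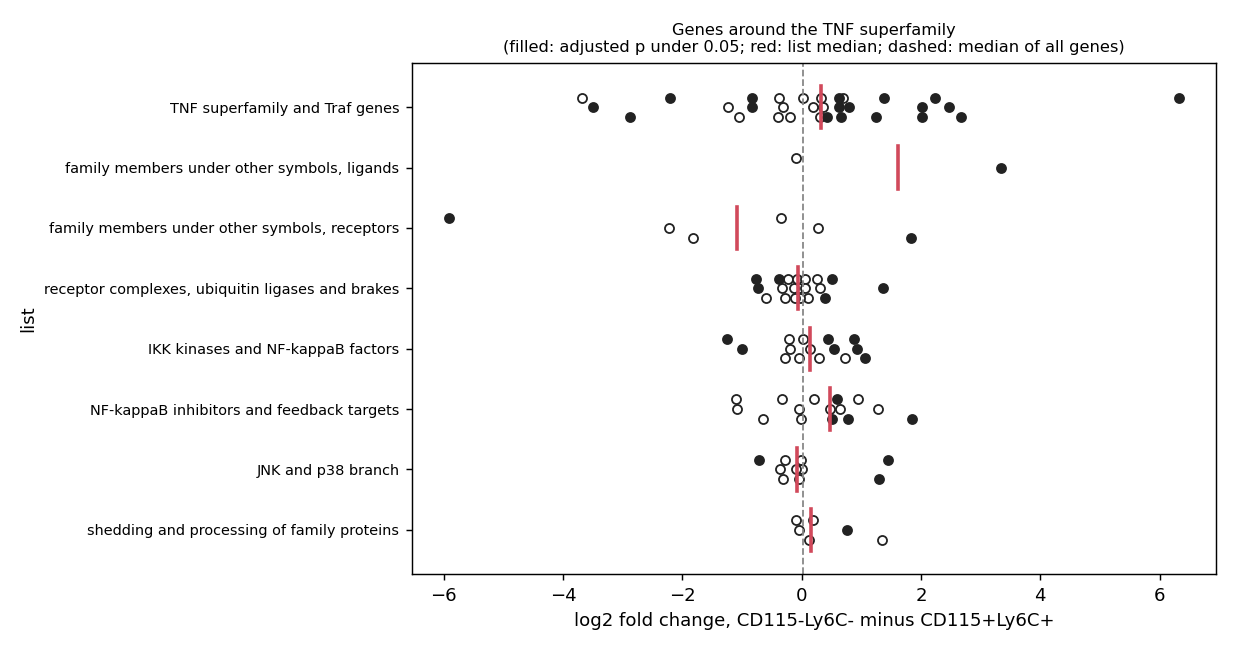
Log2 fold change of CD115-Ly6C- minus CD115+Ly6C+ for the 31 tested family genes (top row) and for the lists around them, with filled points past the threshold, red bars at list medians and a dashed line at the median of all genes, 0.03. The median of the family row is 0.32, and the IKK and NF-kappaB list has a median of 0.14.

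Markers of other cell types moved with the subsets. Summed over 8 monocyte markers, FPKM was 748.94 to 859.6 in CD115-Ly6C- cells, 5537.79 to 5552.93 in CD115+Ly6C+ cells and 1479.3 to 1814.11 in CD115+Ly6C- cells. That list holds Csf1r and Ly6c2, genes of the antigens used to sort, so its sum is not independent of the sort. Csf1r, which encodes CD115, stood at 62.76 and 74.23 FPKM in CD115-Ly6C- cells, 142.4 and 133.35 in CD115+Ly6C+ cells and 109.78 and 137.76 in CD115+Ly6C- cells, and Ly6c2 at 70.36 and 101.18, 2116.55 and 2005.24, and 184.97 and 289.16 for the same subsets. Over 8 markers of late neutrophil granules the sums were 350.03 to 769.42 in CD115-Ly6C- cells and 9164.08 to 9988.02 in CD115+Ly6C+ cells, and in CD115+Ly6C- cells 503.66 in replicate 1 and 2001.78 in replicate 2. Their part in the higher Tnfsf9, Tnfsf13, Tnfsf15, Tnfrsf1a and Tnfrsf14 of CD115+Ly6C+ cells was not tested. Over 10 markers of T and NK cells the sums were 20.21 to 24.77 in CD115-Ly6C- cells, 3.33 to 4.74 in CD115+Ly6C+ cells and 4.76 to 5.06 in CD115+Ly6C- cells. Lat was the main term in CD115-Ly6C- cells (20.89 and 16.49), and Cd3e was listed at 0 in all but 1 CD115+Ly6C+ library (0.04). Over 8 B lineage markers they were 105.53 to 109.43 in CD115-Ly6C- cells, 87.59 to 96.95 in CD115+Ly6C+ cells and 87.16 to 89.07 in CD115+Ly6C- cells, mostly Cd79b, with Pax5 listed at 0 in all but 1 CD115-Ly6C- library (0.11). Cd79a stood at 13.04 and 10.26 FPKM in CD115-Ly6C- cells and at 1.33 or below in every other library, and the part of Cd79a and Lat in the higher Tnfrsf13c, Tnfrsf18 and Tnfsf11 of CD115-Ly6C- cells was not tested. Single markers of other lists were also higher in CD115-Ly6C- cells. Car2 of the erythroid list stood at 68.26 and 59.96 FPKM in CD115-Ly6C- cells, 7.54 and 6.32 in CD115+Ly6C+ cells and 20.46 and 14.02 in CD115+Ly6C- cells. The mast cell marker Cpa3 stood at 22.1 and 26.52 in CD115-Ly6C- cells, 3.1 and 2.43 in CD115+Ly6C+ cells and 1.45 and 1.52 in CD115+Ly6C- cells. The plasma cell marker Sdc1 stood at 72.96 and 79.33 in CD115-Ly6C- cells, 11.43 and 11.7 in CD115+Ly6C+ cells and 24.77 and 32.91 in CD115+Ly6C- cells. Other genes of the same lists did not follow. Xbp1 of the plasma cell list stood at 136.36 and 138.32 in CD115-Ly6C- cells and 144.48 to 190.99 in the others. Prss34 of the mast cell list stood at 5.06 and 11.65 in CD115-Ly6C- cells against 49.28 and 19.27 in CD115+Ly6C+ cells. Hba-a1 of the erythroid list stood at 5.69 to 15.8 over all 6 libraries. The erythroid genes Klf1 and Epor were at 0.57 FPKM or below in every library. Summed over 4 plasma cell markers, FPKM was 209.57 to 218.04 in CD115-Ly6C- cells, 173.29 to 202.69 in CD115+Ly6C+ cells and 172.01 to 177.69 in CD115+Ly6C- cells. Over 7 megakaryocyte, basophil and mast cell markers it was 49.71 to 70.05, 48.53 to 94.28 and 19.03 to 35.74 for the same subsets. Over the 7 osteoclast or stroma markers found it was 82.63 to 97.67, 58.25 to 59.75 and 76.22 to 85.68, mostly Pecam1 (56.78 to 94.65 over all 6 libraries). Acp5 stood at 1.24 to 1.75 FPKM and the rest of that list at 0.87 or below. The 6 erythroid markers summed to 70.8 to 87.31, 19.26 to 32.56 and 22.88 to 50.18 for the same subsets. Whether these cell types were present, and their part in the members higher in CD115-Ly6C- cells, was not tested.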

How the data were processed

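The samples were 6 libraries of polyadenylated RNA, 2 from each of 3 sorted progenitor subsets. Per the submitters' processing notes, Bowtie2, RSEM and mm10 were used, with versions and settings not given in the sources used here. The authors deposited RSEM expected counts, which are estimated, and FPKM per gene, per the file headers. Of the expected counts above 0, 12.58% were not whole (tolerance 1e-06). Genes missing from a table were taken as 0. FPKM in the authors' deposited series table did not differ from the sample tables (largest difference 0.0). Spreadsheet software had turned 21 symbols into dates, restored from the identifier.

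Expected counts were rounded and tested with edgeR 4.0.16 (R 4.3.3): TMM scaling, filterByExpr (minimum count 10, minimum total 15), 1 fit of all 6 libraries with 1 coefficient per subset, and quasi-likelihood F tests with Benjamini-Hochberg adjustment over 12127 genes. The SE is the log2 fold change over the square root of F. The common dispersion was 0.0231, with 3 residual degrees of freedom. Counts were simulated with the common dispersion for every gene and 4-fold changes in 200 genes, drawn only from those above a floor of expression. In each comparison of 12127 genes, 100% of changed genes were recovered and 11 unchanged genes were called. Smaller folds, changes in genes below that floor and spread that differs between genes were not simulated. The full recovery therefore cannot be applied to members with few counts. Among these, Tnfsf13b had a log2 fold change of -3.69 (SE 1.42) for CD115-Ly6C- cells against CD115+Ly6C+ cells. It was not called (edgeR adjusted p = 0.0687), while Tnfsf11, Tnfsf13, Tnfsf15 and Traf1 were called in that comparison.

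Values in every library were given for members past the threshold in any comparison and for the 10 with the highest mean FPKM, with others by range or count. The members and lists were chosen with earlier results of these data known. Lists were described by counts and medians. Alternatives used DESeq2 1.42.0, limma 3.58.1 on log2(FPKM + 1) and log2(FPKM + 0.1), other scalings and filters, a length correction, the replicate number as a block, and each library left out. Coordinates, counted from 1, and promoters came from RefSeq GRCm38.p6, the assembly of mm10, and exon overlap from GENCODE M21. Transcripts were aligned with BLAST+ 2.17.0 (at least 95% identity over 100 bases). The kit's strandedness is not stated, so reads shared with antisense genes cannot be told apart.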

Additional observations from a re-analysis of the deposited data

How the results depend on the processing

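Over 945 alternatives for the 21 genes with values in every library, 814 kept their direction and side of the threshold, 91 lost the call, 13 gained one and 27 changed the sign of an uncalled value, and 0 called values reversed. In CD115-Ly6C- cells against CD115+Ly6C+ cells, 11 of 18 calls held in all 15 alternatives, in CD115-Ly6C- cells against CD115+Ly6C- cells 0 of 11 and in CD115+Ly6C+ cells against CD115+Ly6C- cells 1 of 5. Leaving out 1 library at a time gave 8 to 12 family genes higher and 4 to 6 lower for CD115-Ly6C- cells against CD115+Ly6C+ cells, 0 to 8 higher and 0 to 3 lower against CD115+Ly6C- cells, and 0 to 1 higher and 1 to 4 lower for CD115+Ly6C+ cells against CD115+Ly6C- cells, where the lone library left is assumed to vary like the other subsets. For the pathway lists these ranges were 9 to 18 higher and 4 to 6 lower, 2 to 12 higher and 1 lower, and 0 to 3 higher and 1 lower. Family genes higher in CD115+Ly6C+ cells than in CD115+Ly6C- cells numbered 2, or 1 with the length trend removed and with limma at either pseudocount, and those lower 3, or 6 with DESeq2, 6 with library totals and 5 with no filter. Those lower in CD115-Ly6C- cells than in CD115+Ly6C- cells numbered 3, or 1 with limma at either pseudocount. The pathway lists and pathway genes counted in this section include the family members under other symbols. Pathway genes higher in CD115+Ly6C+ cells than in CD115+Ly6C- cells numbered 1, or 3 with DESeq2, 4 with no filter, 2 with limma on log2(FPKM + 1) and 3 with the 2 subsets fitted alone. Those higher in CD115-Ly6C- cells than in CD115+Ly6C- cells numbered 8, or 13 with library totals, 15 with no filter, 14 with limma on log2(FPKM + 1) and 13 on log2(FPKM + 0.1), and those lower than in CD115+Ly6C+ cells 7, or 4 with library totals. The cause of these shifts was not tested. Of the pathway calls, 12 of 24, 3 of 9 and 1 of 2 held in every alternative that gave a value, in the order of comparisons above. The family members Cd27, Ltb and Cd40 were among the 12. The 3 were Cd27, Ltb and Traip, and the 1 was Cd27.

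The sample titles number the libraries 1 and 2, with no word on a shared animal or day. Deviations of same-numbered libraries correlated at 0.152, -0.01 and -0.004 across all tested genes, and the numbers were not taken as pairs. Some pathway genes did move alike. Ccl4 stood at 129.72 and 356.05 FPKM in replicates 1 and 2 of CD115-Ly6C- cells, 32.18 and 141.75 in CD115+Ly6C+ cells and 41.98 and 173.98 in CD115+Ly6C- cells. Zfp36 and Jun were also higher in replicate 2 of every subset, and Chuk and Bcl3 lower. Whether same-numbered libraries shared a source was not tested. With the replicate number as a block, 13 family genes were higher and 6 lower in CD115-Ly6C- cells than in CD115+Ly6C+ cells, 7 and 1 against CD115+Ly6C- cells, and 2 and 2 in CD115+Ly6C+ cells than in CD115+Ly6C- cells. With the replicate block, pathway genes higher numbered 19, 10 and 2 in these comparisons. For CD115+Ly6C+ cells against CD115+Ly6C- cells the block ended the calls of Tnfsf13 and Tnfsf10 (edgeR adjusted p = 0.0582 and 0.0644), and Tnfsf9 gained a call (0.0402). For CD115-Ly6C- cells against CD115+Ly6C- cells it ended those of Tnfrsf14, Tnfsf15 and Traf3ip2 (0.0522, 0.0533 and 0.0521).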
